A study of Nematostella vectensis with 4 samples.

Results

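Of the 25729 gene models in the deposited count table, 80 formed a set detected in sorted non-muscle cells of the Nematostella vectensis mesentery. Their levels were several-fold lower in sorted muscle cells. The set was chosen on the measured levels themselves. A gene model belonged to it when it had a CPM of 20 or more in both non-muscle libraries (CPM being the count relative to the library total after TMM scaling), when these 2 values lay within 2-fold of each other, and when the lower of them was at least 4 times the higher muscle value. All 4 libraries entered these 3 conditions, so the separation between the fractions and the closeness of the non-muscle libraries are given below as a description, with no test.

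The libraries came from adult sea anemones carrying MHC::mCherry, a transgene in which a myosin heavy chain regulatory sequence drives a red fluorescent protein. Mesentery cells were sorted into an mCherry+ and an mCherry- population, and polyA RNA was sequenced in 2 libraries with the tissue label mesentery muscle and 2 with the label mesentery non muscle. No label ties a library to its gate, and the mCherry+ cells are taken here as muscle and the mCherry- cells as non-muscle. The protocol names 8 adults and the design text 8 transgenic lines, the distal-most tissue was removed before dissociation, and no other genotype, treatment or exact age is labelled for either fraction. The non-muscle fraction is defined only by the absence of transgene fluorescence, and muscle cells that do not express the transgene would be sorted into it. Nothing says which animals entered which duplicate, so the spread between libraries may be partly technical. Replicate numbers follow accession order, and no label states whether libraries of the 2 fractions are paired.

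The mesentery is the fold of inner body wall that divides the gut cavity of a sea anemone. Besides the longitudinal retractor muscle, it carries digestive gland cells, stinging cells, nerve cells, absorptive inner epithelium and the germ line. A sort against a muscle reporter therefore leaves a mixture of cell types, and a transcript of the non-muscle fraction may come from any of them. The NVE identifiers of the table carry no gene names, and 0 of the 25729 matched the RefSeq gene table of assembly jaNemVect1.1. No function, cell type or sequence is therefore given for any member, and the defining markers of muscle, gland, stinging, nerve and germ cells were not analysed here. In bulk RNA of sorted cells, fewer cells of a type and less RNA per cell cannot be told apart.

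Total counts ranged from 31813772 to 67102862 per library, and the libraries of a fraction differed beyond sampling noise, with a chi-square per degree of freedom across gene models of 85.0 for muscle and 188 for non-muscle. Every member had at least 54 counts in every library. The lowest count belonged to NVE12199 in muscle replicate 2 and had an exact 95% Poisson interval of 40.6 to 70.5, which covers counting error only. All 80 members passed the filter on low counts. Of the 3075 gene models with at least 20 CPM in both non-muscle libraries, 2830 had the 2 libraries within 2-fold, and 93 reached the 4-fold separation. All 3 conditions together left the 80, and 13 gene models met the level and the separation but differed over 2-fold between the non-muscle libraries. With the fractions exchanged, the same conditions were met by 253 gene models. Which set was the larger changed with the scaling. With library totals in place of TMM, tried for the exchanged conditions after the data were seen, 343 gene models met the conditions and 87 the exchanged ones.

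**Figure D1:**
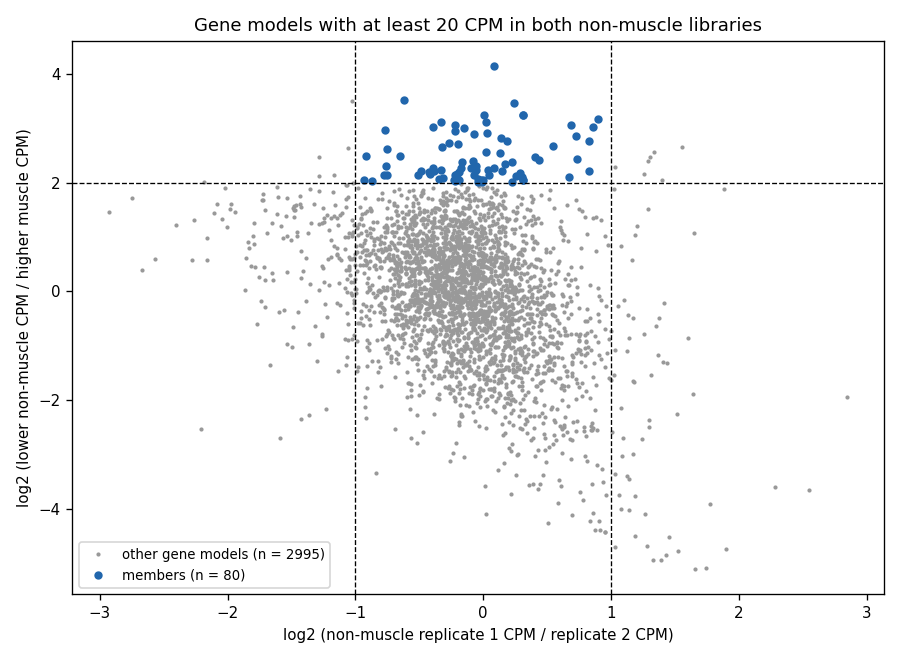
Each point is a gene model with at least 20 CPM in both non-muscle libraries. The horizontal axis is the log2 ratio of the non-muscle libraries, the vertical axis the log2 ratio of the lower non-muscle to the higher muscle CPM, and dashed lines mark the 2-fold and 4-fold conditions. The 80 members (blue) sit in the upper middle field, most of them close to the horizontal line, among 2995 other gene models (grey).

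Together the members took 2.06% of the counts of non-muscle replicate 1 (95% Wilson interval 2.058% to 2.068%) and 1.99% of those of replicate 2 (1.991% to 1.998%). In the muscle libraries they took 0.212% (0.2104% to 0.2135%) and 0.224% (0.2231% to 0.2257%). These intervals cover counting error only. The mean share was thus 2.03% ± 0.05 (SD, n = 2) in the non-muscle fraction and 0.218% ± 0.009 (SD, n = 2) in the muscle fraction. On the TMM-scaled values, the summed level was 15693 and 16899 CPM in the non-muscle libraries and 2752 and 2681 CPM in the muscle libraries. The ratio of the summed CPM is smaller than that of the plain shares because TMM factors were above 1 for the non-muscle libraries (1.31 and 1.18) and below 1 for the muscle libraries (0.77 and 0.837).

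**Figure D2:**
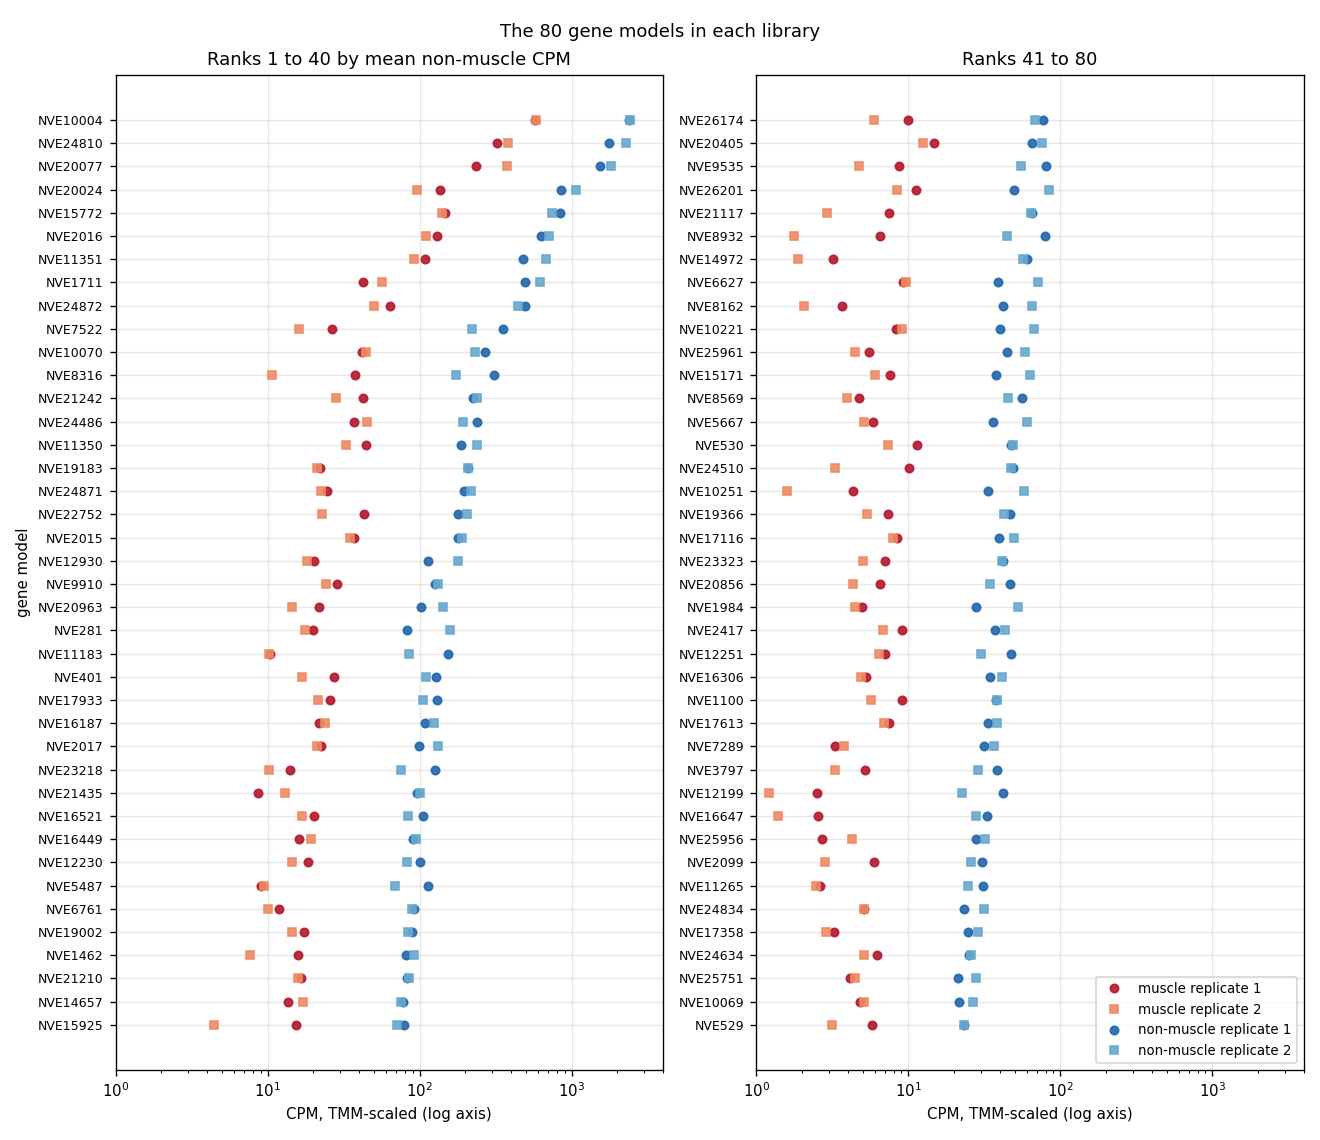
Levels of the 80 members in the 4 libraries, in TMM-scaled CPM on a log axis, ordered by mean non-muscle CPM. Red points are the muscle and blue points the non-muscle libraries, circles are replicate 1 and squares replicate 2. The blue points run from 2406 down to 23.3 CPM as means, and the red points lie to their left in every row, as the selection required.

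A few members held much of the summed level. In mean non-muscle CPM, 3 members reached at least 1000, 26 lay between 100 and 1000, 24 between 50 and 100, and 27 under 50. The median member stood at 73.6 CPM in the non-muscle and 9.84 CPM in the muscle fraction. The 3 most abundant made up 36.4% and 38.6% of the summed CPM of the set in the non-muscle libraries and 41.2% and 49.96% in the muscle libraries. The 10 most abundant made up 62.8% and 65.2% in non-muscle, and 64.9% and 71.0% in muscle. CPM is not divided by gene length, which the files do not give, so the order of members by CPM also reflects their lengths. Against all gene models the members were not the most abundant ones: only 3 of them ranked among the 100 highest mean CPM of the non-muscle fraction. The other 2995 gene models over 20 CPM in both non-muscle libraries had a median of 66.98 CPM there, near the 73.6 CPM of the members, but 61.6 CPM in muscle.

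NVE10004 was the most abundant member, at 2402 and 2410 CPM in the non-muscle libraries and at 576 and 584 CPM in the muscle libraries. Its muscle mean was 24.1% of its non-muscle mean, the highest remainder of any member, and its log2 fold change (muscle over non-muscle) was -2.05 (SE 0.30). NVE24810 had 1761 and 2296 CPM in non-muscle and 324 and 381 CPM in muscle (log2 fold change -2.52, SE 0.32). In both, each muscle library alone stood above the mean non-muscle CPM of all members below the 10 most abundant.

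NVE20077 followed, at 1547 and 1813 CPM in non-muscle and at 234 and 375 CPM in muscle (log2 fold change -2.46, SE 0.34). NVE20024 had 858 and 1075 CPM in non-muscle and 136 and 95.9 CPM in muscle, a log2 fold change of -3.05 (SE 0.34). NVE15772 had 838 and 745 CPM against 147 and 141 CPM (log2 fold change -2.46, SE 0.31). In NVE20077 the higher muscle value was in replicate 2, whereas in NVE20024 it was in replicate 1, so the order of the muscle libraries was not fixed across members.

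NVE11351 had 476 and 679 CPM in non-muscle and 108 and 91.8 CPM in muscle (log2 fold change -2.52, SE 0.33). NVE1711 stood at 495 and 622 CPM in non-muscle and only 42.8 and 57.0 CPM in muscle, a mean non-muscle level 11.2 times the muscle mean (log2 fold change -3.48, SE 0.34). NVE7522 had 354 and 220 CPM in non-muscle and 26.6 and 16.1 CPM in muscle (log2 fold change -3.75, SE 0.40). Of the 10 most abundant members NVE7522 had the widest gap between the non-muscle libraries, 1.61-fold, and NVE10004 the narrowest. The 2 others among the 10 most abundant, NVE2016 and NVE24872, are described with their numbered neighbours.

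NVE14972 had the widest separation of the set. It stood at 60.3 and 56.8 CPM in the non-muscle libraries and at 3.20 and 1.88 CPM in the muscle libraries, so the lower non-muscle value was 17.7 times the higher muscle value. Its log2 fold change was -4.53 (SE 0.40). NVE8162, at 42.3 and 65.1 CPM against 3.69 and 2.06 CPM, was separated 11.5-fold (log2 fold change -4.23, SE 0.43). These 2 and NVE16647, at 33.0 and 27.9 CPM against 2.53 and 1.39 CPM, were the only 3 members separated at least 10-fold.

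The next in separation were spread over the range of levels. NVE8569 had 55.9 and 45.0 CPM in non-muscle and 4.73 and 3.98 CPM in muscle, a separation of 9.52-fold. NVE11265, with 30.8 and 24.8 CPM against 2.61 and 2.48 CPM, was separated 9.51-fold. NVE19183, at 209.8 and 209.3 CPM against 22.0 and 21.3 CPM, was separated 9.49-fold. In NVE19183 both pairs of libraries were nearly equal, with ratios of replicate 1 to replicate 2 of 1.002 in non-muscle and 1.04 in muscle.

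NVE12199 had 41.8 and 22.5 CPM in non-muscle and 2.50 and 1.21 CPM in muscle, the lowest muscle mean of the set at 1.85 CPM. NVE21117 had 65.3 and 64.4 CPM in non-muscle, but 7.45 and 2.93 CPM in muscle. NVE7289 had 31.4 and 36.7 CPM in non-muscle and 3.28 and 3.76 CPM in muscle. In NVE12199 and NVE21117 muscle replicate 1 was over 2-fold above replicate 2, and their log2 fold changes of -4.13 and -3.65 became -4.73 and -4.46 without muscle replicate 1. NVE1711, described above, was the other member among the 10 widest separations, at 8.68-fold, and the only one of the 10 most abundant there.

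Over the set, 42 members were separated less than 5-fold, 14 at least 8-fold and 3 at least 10-fold, with a median of 4.89-fold. The log2 fold changes ran from -4.53 to -2.05 with a median of -2.76, against a median of -0.01 over all 17994 gene models tested. All 80 were lower in muscle in the edgeR quasi-likelihood test at a Benjamini-Hochberg adjusted p under 0.05, beside a background of 21.6% of gene models called lower in muscle, 23.7% called higher and 45.3% called in either direction. The selection used this contrast, so nothing is read from that count.

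No member was absent from the muscle libraries. The muscle mean ranged from 4.34% to 24.1% of the non-muscle mean, with a median of 14.8% and an SD of 4.62 percentage points over members, and the selection does not admit values above 25% for the higher muscle library against the lower non-muscle one. In 37 members both muscle libraries had at least 10 CPM, in 12 both had under 5 CPM, and in 0 was a muscle library without counts. Across the 80 members, the Spearman rho between mean non-muscle CPM and the muscle percentage was 0.07, a description over gene models that share the same libraries. Whether the remainder is RNA carried over from non-muscle cells into the mCherry+ sort or expression in muscle cells was not tested.

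The name of equal levels in both non-muscle libraries holds only in the sense of the 2-fold condition. The higher non-muscle value was within 1.25-fold of the lower in 48 members and within 1.5-fold in 62, with a median of 1.20-fold. The exact 95% binomial interval of the ratio, which covers counting error only, excluded equality in 68 members and included it in 12. NVE10004, NVE19183, NVE21117 and NVE529 were among these 12. Non-muscle replicate 1 was above replicate 2 in 34 members and below it in 46, and the log2 ratio of replicate 1 over 2, taken on CPM + 0.5, had a median of -0.06. For the 2995 other gene models of that level, replicate 1 was the higher in 36.6% and the median was -0.15.

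The 13 gene models that failed only the closeness were split in direction, with 7 higher in non-muscle replicate 1 and 6 in replicate 2. A wider set asked the level and the separation of the higher non-muscle library only. It held 222 gene models in which the higher non-muscle library had at least 20 CPM and at least 4 times the higher muscle level while the libraries differed over 2-fold. Of these, 198 were higher in non-muscle replicate 2 and 24 in replicate 1. These groups were chosen on the same values, so the counts are a description. The 13 had a median separation of 5.28-fold. NVE19538 missed by the least: it had 34.4 and 70.0 CPM in non-muscle, 3.02 and 2.48 CPM in muscle, and a non-muscle gap of 2.04-fold. NVE9534 followed closely, with a gap of 2.05-fold.

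The members closest to each limit show how much rests on it. NVE25751 (21.3 and 28.0 CPM in non-muscle) and NVE10069 (21.5 and 26.6 CPM) lay just inside the level of 20 CPM, while NVE5779 (19.2 and 34.3 CPM) and NVE18969 (19.0 and 19.5 CPM) lay just outside. For closeness, NVE281 (82.7 and 157.5 CPM, 1.90-fold) and NVE1984 (28.0 and 52.8 CPM, 1.89-fold) lay inside, and NVE19538 and NVE9534 (46.2 and 22.6 CPM, 2.05-fold) outside. For separation, NVE401 (4.01-fold) and NVE529 (4.03-fold) were inside, and NVE23248 (3.94-fold) and NVE25327 (3.83-fold) outside. NVE25327 had 194.8 and 198.8 CPM in non-muscle against 44.1 and 50.9 CPM in muscle, so a gene model of higher level and closer replicates than most members was left out by a small margin.

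Muscle replicate 1 more often held the higher remainder of the members. It was above muscle replicate 2 in 63 of the 80 members (78.8%), against 58.2% of the 2995 other gene models over 20 CPM in both non-muscle libraries. On the same scale, the log2 ratio of muscle replicate 1 over 2 had a median of 0.24 in the members and 0.09 in the others. The selection bounds the higher muscle value but not the order of the 2, and it takes in gene models of low muscle level only, so the groups are not matched in muscle level. The median log2 fold change of the members was -2.99 without muscle replicate 1 and -2.57 with replicate 2 of that fraction left out. The number of gene models that met the conditions was then 162 and 90 in place of 80. Leaving out a muscle library can only loosen the separation condition, so this number could not fall.

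The 3 members with the widest gap between the muscle libraries were singled out after their values were seen. NVE8932 had 6.55 and 1.77 CPM in muscle and 78.9 and 44.5 CPM in non-muscle. NVE8316 had 37.6 and 10.8 CPM in muscle and 308 and 174 CPM in non-muscle. NVE15925 had 15.3 and 4.45 CPM in muscle but 78.5 and 71.0 CPM in non-muscle. In NVE8932 and NVE8316 replicate 1 was higher in both fractions, whereas in NVE15925 the non-muscle libraries were close. The log2 fold changes of these 3 were -3.90, -3.31 and -2.92 with all libraries, -5.12, -4.48 and -4.07 without muscle replicate 1, and -3.23, -2.67 and -2.28 without muscle replicate 2.

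The order of the muscle libraries varied only weakly with that of the non-muscle libraries. Of the 11 members at least 1.3-fold higher in non-muscle replicate 1, 10 were also higher in muscle replicate 1, with a median log2 muscle ratio of 0.67. Of the 52 members within 1.3-fold in non-muscle, 40 were higher in muscle replicate 1 (median 0.24), and of the 17 members at least 1.3-fold higher in non-muscle replicate 2, 13 were (median 0.18). Across the 80 members, the log2 ratio within the non-muscle fraction and that within the muscle fraction were correlated at 0.29 by Pearson's r and 0.29 by Spearman's rho. Over the 2750 other gene models of the same level and within 2-fold they were 0.31 and 0.30, and over all 2995 others 0.40 and 0.36. Gene models share the 4 libraries and are not independent, so these values are a description.

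**Figure D3:**
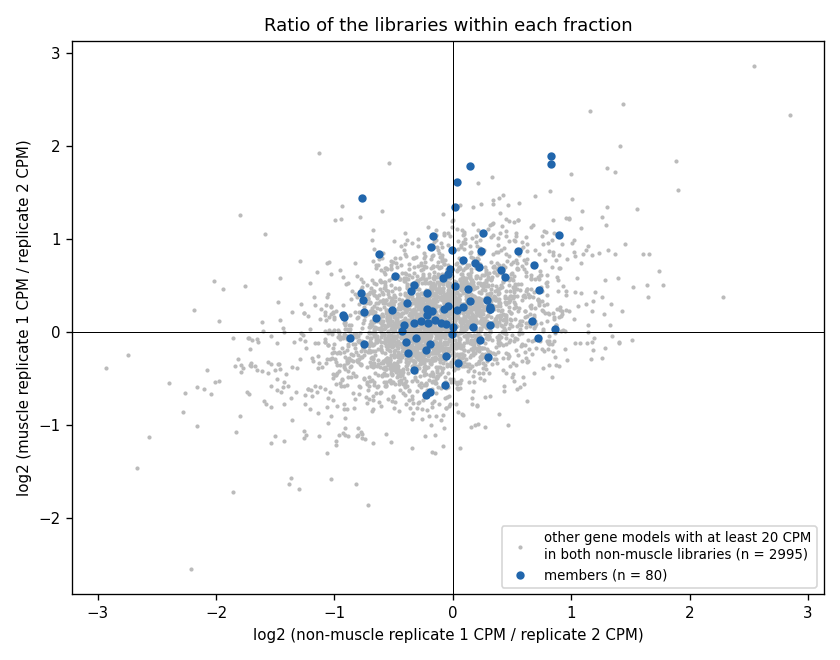
The log2 ratio of replicate 1 to replicate 2 in the non-muscle fraction (horizontal) and in the muscle fraction (vertical). Blue points are the 80 members and grey points the 2995 other gene models with at least 20 CPM in both non-muscle libraries. Of the members, 63 lie above the horizontal zero line.

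The numbers of the gene models were not used in the selection, and members occurred next to each other in number. Of the 80 members, 11 had another member at the adjacent number (13.8%). An adjacent member was present for 147 of the 25649 other gene models of the table (0.573%) and for 25 of the 2995 others over 20 CPM in both non-muscle libraries (0.835%). Allowing numbers up to 2 apart left the count at 11, and up to 5 apart it was 13. The gene models higher in muscle under the exchanged conditions, a larger set, had 32 of 253 with an adjacent gene model of their own set (12.6%). For the 222 gene models with non-muscle libraries over 2-fold apart it was 20 (9.01%). Among all 3075 gene models over 20 CPM in both non-muscle libraries it was 1220 (39.7%). The sets differ in size, so these shares are not matched. Whether adjacent numbers stand for adjacent genes, for copies of a gene or for pieces of 1 gene is not given in the sources used here, and it was not tested. Reads of near-identical copies may have been shared between them by the counting.

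The 11 members formed 4 pairs and 1 run of 3. All were lower in muscle, as the selection required. The ratios within a pair or run are given for each library as a description. The closeness condition also limits how far such ratios can differ between the non-muscle libraries. Ratios between members of distant numbers were not compared, so steady ratios are not read as particular to adjacent numbers. The run of 3 held NVE2015, at 178 and 191 CPM in non-muscle and 37.2 and 34.8 CPM in muscle. NVE2016 had 628 and 709 CPM against 130 and 111 CPM, and NVE2017 had 99.5 and 133 CPM against 22.3 and 21.2 CPM. The muscle means of these 3 were 18.0% to 19.5% of the non-muscle means. The CPM of NVE2016 was between 3.18 and 3.71 times that of NVE2015 in the 4 libraries and between 5.24 and 6.32 times that of NVE2017.

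The next numbers on either side of this run behaved differently from each other. NVE2014 was at 0.167 and 0.379 CPM in non-muscle and at 0.261 and 0.268 CPM in muscle and was not tested. NVE2018 had 7.15 and 7.75 CPM in non-muscle against 0.745 and 0.492 CPM in muscle, with a log2 fold change of -3.61 (SE 0.42, edgeR adjusted p = 0.00054). Its log2 fold change was larger in size than those of the 3 members (-2.35, -2.47 and -2.41), at a level under the 20 CPM limit, and the difference was not tested.

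Among the pairs, NVE24871 had 197 and 219 CPM in non-muscle and 24.6 and 22.6 CPM in muscle. Its neighbour NVE24872 had 494 and 448 CPM against 63.6 and 50.6 CPM. The muscle remainder of this pair, 11.3% and 12.1%, was lower than that of the other pairs and of the run, which lay between 17.2% and 20.6%. The CPM of NVE24872 was 2.04 to 2.59 times that of NVE24871 across the libraries. Between the non-muscle libraries the 2 went in opposite directions, NVE24871 being higher in replicate 2 and NVE24872 in replicate 1.

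NVE11350 had 187 and 239 CPM in non-muscle and 44.6 and 33.0 CPM in muscle, and the adjacent NVE11351 stayed 2.42 to 2.85 times as high in each library. NVE529 had 23.3 and 23.4 CPM in non-muscle and 5.77 and 3.13 CPM in muscle, and NVE530 stayed 1.97 to 2.36 times as high, at 47.3 and 48.8 CPM in non-muscle. The ratio varied most in the pair of NVE10069 and NVE10070, which also had their higher non-muscle value in different replicates. NVE10070 had 270 and 231 CPM in non-muscle and 41.8 and 44.3 CPM in muscle, and its ratio to NVE10069 was 12.6 in non-muscle replicate 1 and 8.63 to 8.73 in the other libraries.

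**Figure D4:**
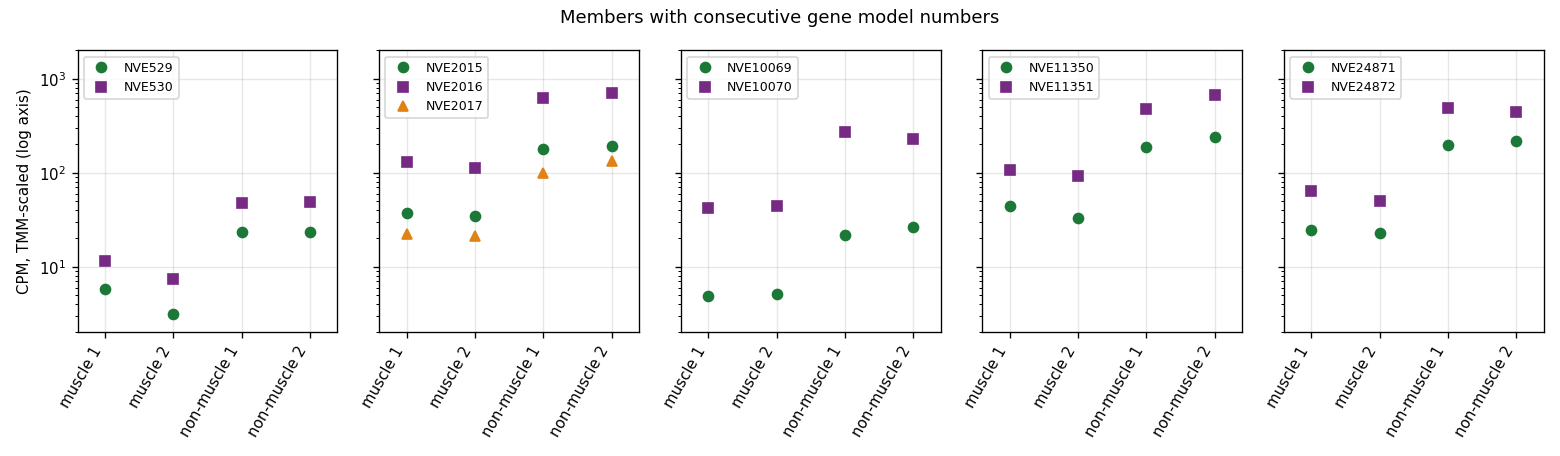
TMM-scaled CPM (log axis) of the 11 members with consecutive numbers, in 5 panels of 2 or 3 gene models, for muscle replicates 1 and 2 and non-muscle replicates 1 and 2. The ratio within a panel varied at most 1.27-fold over the libraries in 4 panels, and 1.46-fold for NVE10069 and NVE10070. Members of distant numbers were not compared.

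The adjacent gene models that were not members were also counted by direction. Of 147 such neighbours, 122 were tested, and 48 of them (39.3%) were lower in muscle in the edgeR test, where the background was 21.6%. Higher in muscle were 20 (16.4%), against a background of 23.7%. The median log2 fold change of the neighbours was -0.59, against -0.01 over all tested. Restricted to the 25 neighbours with at least 20 CPM in both non-muscle libraries, 14 (56%) were lower in muscle, against 34% of all 3075 gene models at that level, with medians of -1.14 and -0.39. Neighbours are not independent of each other or of the members where reads are shared, and no test of the difference between these shares was made.

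Of the 13 gene models that failed only the closeness of the non-muscle libraries, 3 were adjacent to a member, and they are named here after their values were seen. Their non-muscle libraries differed 2.52-fold (NVE7288), 2.44-fold (NVE8931) and 2.05-fold (NVE9534), where the 13 had a median of 2.44-fold. NVE7288, next to NVE7289, had 244 and 96.7 CPM in non-muscle and 16.4 and 13.3 CPM in muscle. NVE8931, next to NVE8932, had 191 and 78.3 CPM against 14.8 and 10.04 CPM. NVE9534, next to NVE9535, was at 46.2 and 22.6 CPM in non-muscle and at 4.62 and 2.62 CPM in muscle. All 3 were higher in non-muscle replicate 1, as were their members NVE8932 (1.77-fold) and NVE9535 (1.46-fold), whereas NVE7289 was slightly lower there, at 0.857 of replicate 2. Of the 222 gene models with an uneven non-muscle level, 5 (2.25%) were adjacent to a member, and of the 253 that met the exchanged conditions, 1 was.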

How the data were processed

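The authors deposited a table of raw read counts for each gene model in each of the 4 libraries, unpooled. Per the submitters' processing notes, cutadapt and TopHat were used, with no version named. How reads were counted, whether strand was used and which genome build served are not given in these sources, and reads of overlapping, antisense or near-identical gene models may have been split. From these counts, TMM factors were computed on all rows with edgeR 4.0.16 in R 4.3.3, and CPM from them. The comparison of fractions used filterByExpr (minimum count 10, minimum total 15), which left 17994 gene models, TMM, and the robust quasi-likelihood test over all 4 libraries, 2-sided, with Benjamini-Hochberg adjustment at 0.05. Standard errors are the size of the log2 fold change divided by the square root of F. The script was tested on simulated data. DESeq2 1.42.0, limma-voom 3.58.1, other scalings, no filter, other limits and each library left out were alternatives.

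The members, limits and descriptions were chosen with earlier results of these data known. Named were the 10 members highest in mean non-muscle CPM, the 10 of widest separation, the 2 gene models on each side of each limit and the longest run of adjacent numbers. Others are named as part of a count or where stated.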

Additional observations from a re-analysis of the deposited data

How the results depend on the processing

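All 80 members stayed lower in muscle under RLE factors, library totals, no filter, DESeq2, limma-voom and each library left out. With all 4 libraries, all 80 were called each time, beside 3696 to 6873 gene models called lower over the table under these alternatives. The selection required a 4-fold gap between the fractions in these same libraries. Direction and calls were thus largely fixed in advance, and nothing is read from them. The 33 named gene models, chosen on the same values, kept direction in all 297 refits. The number of gene models meeting the conditions moved more: it was 343 under library totals, where 78 of the 80 were among them and the median of all gene models lay at -0.65 on the log2 scale, 174 at a separation of 3 and 14 at a separation of 8, and 90 to 388 with a library left out (162 without muscle replicate 1). Without a muscle library the separation condition can only loosen, so this number could not fall. Without a non-muscle library the closeness condition is void by construction. The level and the separation then rest on the remaining library of that fraction, so they can only loosen as well. The void closeness alone does not account for the rise, because level and separation over all 4 libraries were met by 93 gene models. The number of gene models meeting the conditions was 388 (without replicate 1) and 140. It was 81 under RLE factors, 78 with TMM from filtered rows, 112 and 54 at 10 and 40 CPM, and 62 and 92 within 1.5-fold and 3-fold. The background of gene models lower in muscle, 3894, was 6873 under library totals and 1406 to 4333 with a library left out, and that of gene models higher in muscle, 4262, was 2246 and 2281 to 4561. Both minima were those without muscle replicate 2, and leaving out muscle replicate 1 gave 2442 lower; the cause was not tested. In such fits the remaining library of the fraction carries the spread of the others. Leaving out muscle replicate 1 moved the fold of 9 members by over 1.5 times, and muscle replicate 2 that of 4. No paired analysis was made, because the labels give no replicate numbers that link libraries of both fractions. The lack of such labels does not show that the libraries are unpaired.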
